A study of Mus musculus with 8 samples.

Results

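The genes described here are Arntl, Clock, Npas2, Nfil3 and Rora, 5 of the 15728 genes listed for mouse lung RNA in a table of counts per 1000000 reads (CPM). They were taken by symbol, and each had 1 row. They were selected on their CPM in this same knockout against wild type comparison, so their levels and fold changes are given as a description with no test. The knockout group is 4 lung libraries of mice labelled triply n/i/eNOSs-/-, in which all 3 nitric oxide synthases (neuronal, inducible, endothelial) are deleted, and the wild type group is 4 lung libraries of mice with all synthases intact. Both groups are labelled as C57BL/6J background, 4 weeks old and unexposed, and the labels do not say whether a library is 1 animal. Since the 3 deletions are always combined, no single synthase can be told apart from the others. Time of day, sex and litter are not among the labels. A difference between the groups in time of collection thus cannot be told apart from genotype in these clock genes. The assay was CAGE (cap analysis of gene expression), in which 1 read stands for 1 capped 5′ end, so levels of different genes can be compared without dividing by length.

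In the mammalian circadian clock, ARNTL (also called BMAL1) pairs with CLOCK or with its paralogue NPAS2, and the pair binds E-boxes and activates the genes of its own repressors, the Period and Cryptochrome proteins. The same pair drives the genes of the nuclear receptors REV-ERBα and REV-ERBβ (Nr1d1 and Nr1d2), which repress Arntl, Npas2, Clock and Nfil3, while ROR receptors such as RORα (Rora) activate through the same DNA element. NFIL3 represses through D-boxes, the sites at which the activators DBP, TEF and HLF also bind. The clock runs in airway epithelium and other lung cells, and Arntl and Dbp peak at opposite times of day.

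The sequences bear on these genes because REV-ERB and ROR factors meet at a shared element near the start of Arntl and Nfil3. A search of the RefSeq promoter windows (250 bases before to 50 after each annotated start, GRCm38.p6, both strands) used the letters AGTAGGTNA, chosen after these sequences had been read. The letters occurred 2 times in a window of Arntl and 1 time in that of Nfil3, and in 194 of 32851 windows in all (0.591%). Only 3 windows held more than 1 match. The matches are shown 5′ to 3′ on the strand that reads AGTAGGTNA, with the match in capitals and 10 bases on either side:
Arntl, first match (chr7:113207493-113207521, + strand): ttggtcggaaAGTAGGTTAgtggtgcgac
Arntl, second match (chr7:113207529-113207557, + strand): gaaggcagaaAGTAGGTCAgggacggagg
Nfil3, match (chr13:52981033-52981061, + strand, opposite to the gene): gatgtgtgttAGTAGGTCAgttccgagcg
The first bases of the Arntl matches lay 8 bases before and 29 bases after its second annotated start. Read along the gene, opposite to the strand shown, the match of Nfil3 began 12 bases before its start. The half-site AGGTCA, which lies inside 2 of these 3 matches, was also found in 1 of 3 windows of Clock, and in 16.3% of all windows. The single windows of Npas2 and Rora held neither. The E-box CACGTG (7.15% of windows) and the D-box letters TTATGNAA (3.38%) were in none of the 8 windows of the 5 genes. No match says only that the letters are not in these 300 bases.

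The 250 bases before the first annotated start of Arntl are shown because they carry many CCAAT boxes, letters that were also chosen after the sequences had been read, with CCAAT or its complement ATTGG in capitals:
Arntl, before the start (chr7:113207215-113207464, + strand): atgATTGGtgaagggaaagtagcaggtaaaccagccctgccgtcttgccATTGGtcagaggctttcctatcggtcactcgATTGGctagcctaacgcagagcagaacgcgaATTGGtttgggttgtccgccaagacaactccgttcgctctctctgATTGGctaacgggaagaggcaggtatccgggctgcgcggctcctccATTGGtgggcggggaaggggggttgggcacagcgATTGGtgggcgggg
This stretch held 7 such boxes and its whole 300-base window 8, a number that 1 of 32851 windows reached, namely this one. The other 4 genes had 0 or 1 box in each of their windows. The same stretch of Nfil3, which was 81.6% G and C, is shown with its ROR element match and its box in capitals:
Nfil3, before the start (chr13:52981040-52981289, - strand): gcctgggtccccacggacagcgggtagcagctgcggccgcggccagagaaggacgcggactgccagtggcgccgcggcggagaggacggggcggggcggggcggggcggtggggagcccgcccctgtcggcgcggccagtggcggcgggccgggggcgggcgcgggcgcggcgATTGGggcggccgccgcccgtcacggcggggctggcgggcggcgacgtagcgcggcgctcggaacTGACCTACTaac
These windows come from the reference genome and not from the mice studied.

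Nos3, the endothelial synthase, stood at 5.56 to 8.83 CPM in knockout lungs, against 18.2 to 22.8 CPM in wild type lungs (log2 fold change -1.38, limma adjusted p = 4.58e-05), and whether its read 5′ end lies in the deleted part is not given in the labels. Reads recovered from the CPM came to 13014134 to 15096188 per knockout library and 15598154 to 18593913 per wild type library, so every knockout library was the shallower. The 10 lung markers, among them Sftpc and Scgb1a1, were at or above 47.7 CPM in every library. Of them, 2 passed the test as lower (Sftpc and Foxj1, of alveolar type II and ciliated cells) and 1 as higher (Cdh5, of endothelium). Other markers of the same cells were not called: Sftpb of type II cells (log2 fold change -0.02), and Pecam1 (0.10) and Cldn5 (-0.18) of endothelium. Abca3, a lamellar body gene of type II cells outside this list, was called higher (0.92). The part of these markers in the results below was not tested. Of the 14065 genes that reached 1 CPM in 4 or more libraries, limma called 30.9% at an adjusted p under 0.05, with 16.6% higher and 14.3% lower in the knockout (2341 and 2010 genes); TMM scaling turned that balance to 2246 higher and 2355 lower. Values of the genotypes did not overlap for 31.2%. In most clock genes 1 knockout library, replicate 1, lay apart from the rest of its group, and values without it are given beside the genes it moved most. The 5 genes all passed the filter on low values.

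The activator genes were higher in knockout lungs, Arntl and Npas2 by far more than Clock. Arntl stood at 7.22, 22.8, 21.7 and 20.5 CPM in the 4 knockout libraries, against 2.03, 2.74, 2.48 and 2.18 CPM in the 4 wild type libraries. Every knockout library lay above every wild type library, with replicate 1 low and the other 3 knockout libraries close together. The means were 18.1 ± 7.28 CPM in the knockout and 2.36 ± 0.316 CPM in wild type (SD, n = 4 each), a log2 fold change of 2.58 (SE 0.30) on log2(CPM + 0.5). Without knockout replicate 1 the log2 fold change was 2.96. In bulk tissue, a change in the number of cells that use a gene and a change in its RNA per cell cannot be told apart.

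Npas2 stood at 5.10, 17.45, 14.3 and 15.1 CPM in knockout lungs, against 1.67, 1.88, 1.21 and 1.80 CPM in wild type lungs. As for Arntl, replicate 1 was low among the knockouts and the genotypes did not overlap, although the order of the other libraries was not that of Arntl. The means were 12.995 ± 5.43 CPM in the knockout and 1.64 ± 0.299 CPM in wild type, with a log2 fold change of 2.54 (SE 0.31), or 2.92 without knockout replicate 1. The ratio of Arntl to Npas2 ran from 1.31 to 1.52 in knockout libraries and from 1.21 to 2.05 in wild type libraries, so the ratio did not part the genotypes although each gene did.

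Clock stood at 56.0, 69.0, 56.9 and 64.6 CPM in knockout lungs, against 34.3, 32.5, 33.6 and 32.6 CPM in wild type lungs. The genotypes did not overlap, and for this gene knockout replicate 1 lay beside replicate 3. The means were 61.7 ± 6.25 CPM in the knockout and 33.2 ± 0.82 CPM in wild type, and the log2 fold change was 0.88 (SE 0.08). Clock was the most abundant of the 5 genes in each of the 8 libraries, followed by Rora.

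**Figure D1:**
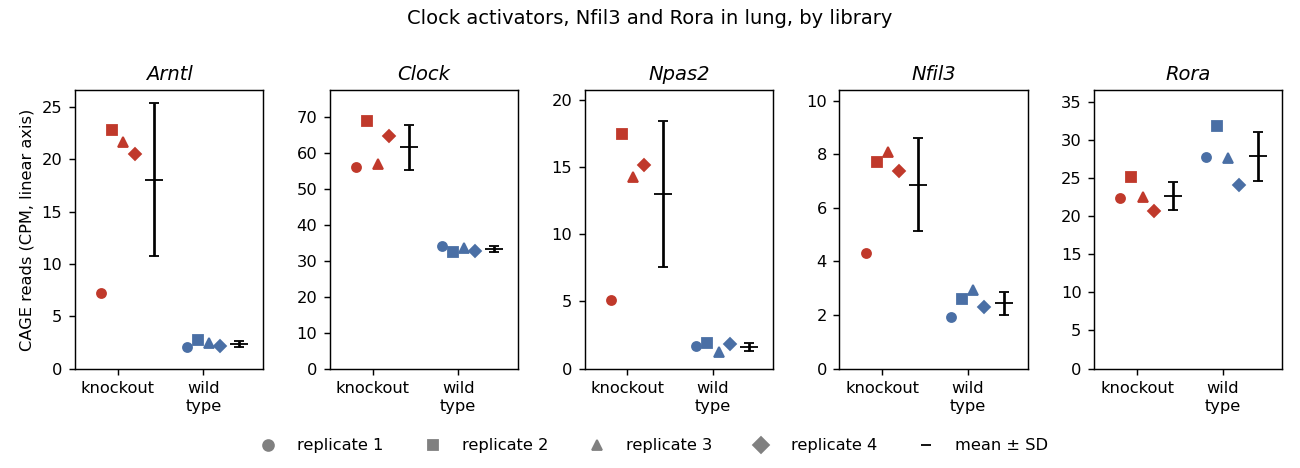
CPM (linear axis from 0) of the 5 genes in each library, with knockout libraries left of wild type libraries, marker shapes for replicate numbers and bars for mean ± SD (n = 4). The genotypes are separate for Arntl, Clock, Npas2 and Nfil3 and overlap for Rora, and knockout replicate 1 is low at 7.22 CPM of Arntl, 5.10 CPM of Npas2 and 4.31 CPM of Nfil3.

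The transcripts of the ARNTL partners also differed in make-up, and protein was not measured. Clock and Npas2 summed to 61.1 to 86.5 CPM in knockout lungs, against 34.4 to 35.9 CPM in wild type lungs. Npas2 made up 8.34%, 20.2%, 20.1% and 19.0% of that sum in the knockout libraries, against 4.65%, 5.46%, 3.48% and 5.23% in the wild type libraries. Reads of the partners together outnumbered those of Arntl 8.47, 3.80, 3.29 and 3.89 times in the knockout libraries. In the wild type libraries they did so 17.7, 12.6, 14.0 and 15.8 times. Transcripts of the partners thus exceeded those of Arntl in every library, by a smaller ratio in the knockout.

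Nfil3, the D-box repressor, stood at 4.31, 7.71, 8.07 and 7.38 CPM in knockout lungs, against 1.91, 2.58, 2.94 and 2.31 CPM in wild type lungs. All knockout values lay above all wild type values, with replicate 1 lowest among the knockouts. The means were 6.87 ± 1.73 CPM in the knockout and 2.44 ± 0.435 CPM in wild type, with a log2 fold change of 1.30 (SE 0.19), or 1.5 without knockout replicate 1. The groups therefore did not overlap for 4 of the 5 genes, all 4 higher in the knockout, where 16.8% of all genes tested were higher without overlap. Because this contrast was used to pick the genes, nothing is read from that count.

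The activators that share D-boxes with NFIL3 went the other way. Dbp stood at 40.3, 5.82, 6.21 and 4.69 CPM in knockout lungs, against 97.8, 87.7, 96.0 and 79.3 CPM in wild type lungs (log2 fold change -3.22, SE 0.51, limma adjusted p = 0.00107). Hlf fell to 4.52 ± 2.46 CPM in knockout lungs, against 34.5 ± 2.73 CPM in wild type lungs, and Tef to 48.6 ± 18.1 CPM, against 160.6 ± 18.9 CPM in wild type lungs (limma adjusted p = 1.66e-05 for Hlf and 8.04e-05 for Tef). Without knockout replicate 1 the log2 fold changes were -3.90 for Dbp, -3.21 for Hlf and -2.001 for Tef, against -3.22, -2.91 and -1.77 with all libraries. Summed over these activators, there were 28.8, 6.34, 6.23 and 6.26 of their reads for each read of Nfil3 in the knockout libraries, against 139.5, 111, 97.8 and 130 in the wild type libraries. Knockout replicates 2 to 4 thus lay close together in that ratio, and replicate 1 lay between them and wild type.

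Rora, the receptor that activates Arntl, differed least of the 5 genes. It stood at 22.4, 25.1, 22.5 and 20.7 CPM in knockout lungs, against 27.8, 31.8, 27.7 and 24.0 CPM in wild type lungs. The genotypes overlapped, since knockout replicate 2 lay above wild type replicate 4. The means were 22.7 ± 1.82 CPM in the knockout and 27.8 ± 3.16 CPM in wild type, a log2 fold change of -0.29 (SE 0.09), which ran from -0.35 to -0.22 when 1 library at a time was left out. By size of change, 33.1% of all genes tested differed more than Rora, against 0.37% for Arntl, 0.391% for Npas2, 1.45% for Nfil3 and 3.47% for Clock.

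**Figure D2:**
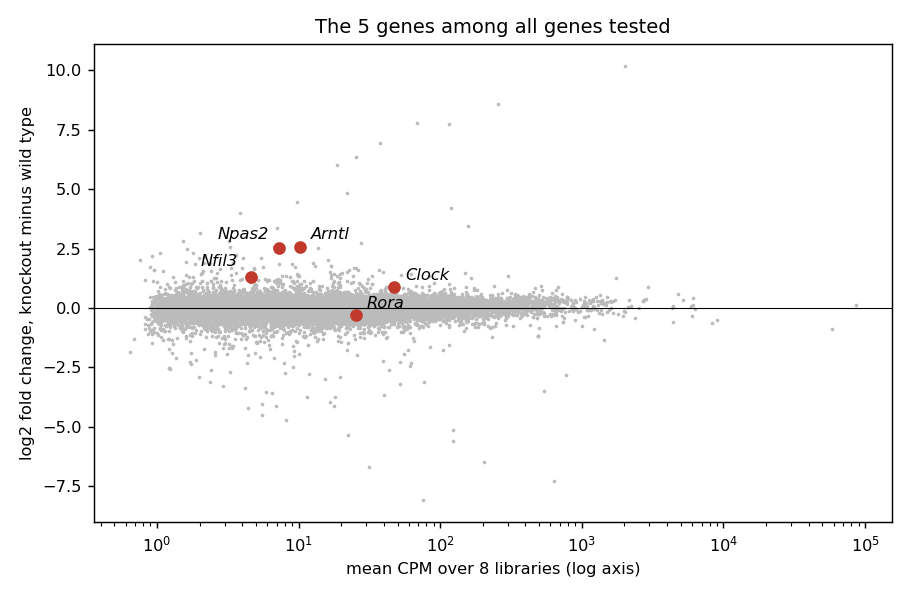
Log2 fold change (knockout minus wild type, on log2(CPM + 0.5)) against mean CPM over 8 libraries (log axis) for the 14065 genes tested in grey, with the 5 genes in red. Arntl and Npas2 stand near 2.5 above most genes of like level, Nfil3 at 1.30 and Clock at 0.88, and Rora at -0.29 lies within the cloud.

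Arntl2, the paralogue of Arntl, stood at 0.40 to 1.0 CPM in knockout lungs, against 0.38 to 0.54 CPM in wild type lungs, too low to be tested.

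The REV-ERB genes, whose products repress at the ROR element, were lower. Nr1d2 stood at 68.0, 31.0, 24.9 and 26.6 CPM in knockout lungs, against 87.4, 86.6, 99.8 and 95.7 CPM in wild type lungs (log2 fold change -1.41, SE 0.25, limma adjusted p = 0.002), and its log2 fold change was -1.73 without knockout replicate 1. Nr1d1 stood at 85.7, 45.2, 46.6 and 36.0 CPM in knockout lungs, against 86.2, 73.5, 89.1 and 65.6 CPM in wild type lungs. Its adjusted p was 0.0467 in limma, and its call ended in edgeR (0.0615), in DESeq2 (0.107) and whenever a library other than knockout replicate 1 was left out (0.0508 to 0.116). When knockout replicate 1 was left out, Nr1d1 had a log2 fold change of -0.87 (limma adjusted p = 0.000605), against -0.62 with all libraries. Rora had 0.146, 0.329, 0.315 and 0.330 reads for each read of Nr1d1 and Nr1d2 together in the knockout libraries, against 0.160, 0.199, 0.146 and 0.149 in the wild type libraries. In that ratio knockout replicate 1 lay at the wild type level and the other 3 knockout libraries above all wild type libraries.

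**Figure D3:**
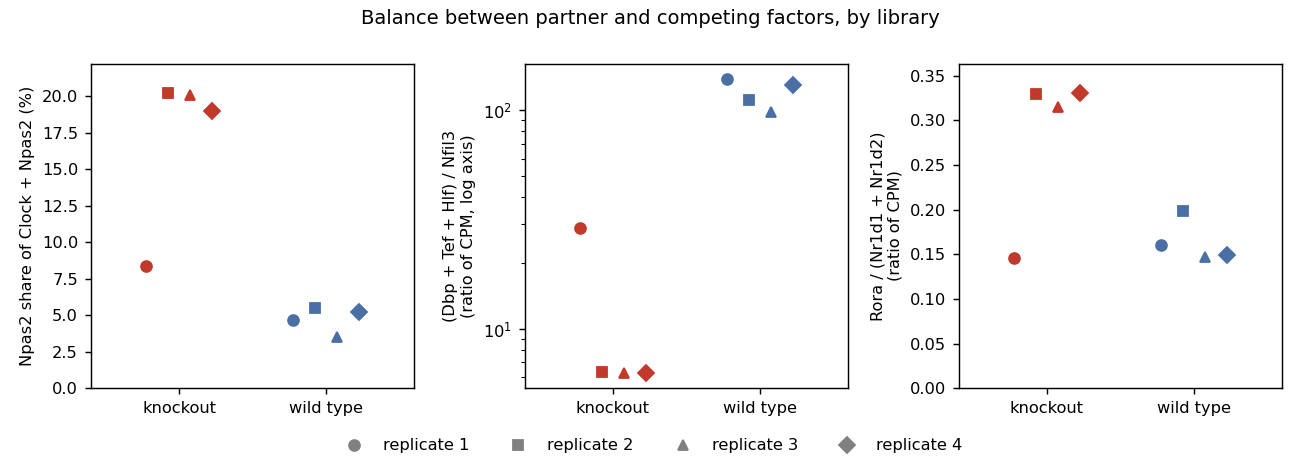
Each point is 1 library, knockout left of wild type, with shapes for replicate numbers: the Npas2 share of Clock and Npas2 reads (%), reads of Dbp, Tef and Hlf per read of Nfil3 (log axis), and reads of Rora per read of Nr1d1 and Nr1d2. Knockout replicates 2 to 4 lie together in each panel, and replicate 1, at 8.34%, 28.8 and 0.146, lies towards wild type or at its level.

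The repressor genes that the ARNTL pair drives were lower in the knockout. All 10 measured repressor genes and all 3 D-box activator genes passed the limma test as lower, where 14.3% of all genes tested did, with median log2 fold changes of -1.29 and -2.91, against 0.01 over all genes tested. Per2 stood at 19.3, 7.91, 8.83 and 6.92 CPM in knockout lungs, against 31.2, 44.05, 46.6 and 41.2 CPM in wild type lungs, and Per3 and Per1 had log2 fold changes of -2.23 and -0.80. Cry1, which carries both E-boxes and ROR elements in its known regulatory regions, fell by 1.43 on the log2 scale. Ciart (listed as Gm129), a repressor of the ARNTL pair, had the largest log2 fold change of these genes at -3.57 (SE 0.32, limma adjusted p = 2.25e-05), with 0.20 to 1.92 CPM in knockout lungs, against 10.65 to 12.99 CPM in wild type lungs. Bhlhe40 and Bhlhe41, which compete for E-boxes, fell by 1.03 and 1.17. The genotypes did not overlap for 8 of the 10 repressors, where 14.3% of all genes tested were lower without overlap. They overlapped for Nr1d1 and Cry2. Cry2 had a log2 fold change of only -0.42, and knockout replicate 1, at 26.1 CPM, lay within its wild type range of 25.7 to 30.6 CPM. Without knockout replicate 1 all 10 repressors were called lower, with log2 fold changes of -2.29 for Per2, -2.61 for Per3, -0.98 for Per1 and -3.97 for Ciart. Cry2 lost its call without wild type replicate 3 or 4 (limma adjusted p = 0.0631 and 0.0619, against 0.0230 with all libraries; range over alternatives 0.00524 to 0.0631), which with Nr1d1 left at least 8 repressors called in every alternative run. The repressor list was drawn up with these values known.

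Knockout replicate 1 took part in the shift to different degrees in different genes. Measured on the log2 scale from the wild type mean, it had moved 48.7% as far as the mean of the other 3 knockout libraries for Arntl, 47.9% for Npas2 and 48.4% for Nfil3. For Clock the share was 81.0%, and for Rora, whose shift was small, 107%. Among the 13 repressors and D-box activators the share ran from -15.4% for Nr1d1 to 89.0% for Cry1, with a median of 41.6%, and it was under 70% for 12 of them. Of 246 genes with a mean of at least 5 CPM and a shift over 1 in the other 3 libraries, 91 (37.0%) were under 70%, and the median was 85.7%. The 13 genes were not held to that limit on the shift. Per1 (-0.98), Nr1d1 (-0.87) and Cry2 (-0.52) shifted by less in the other 3 libraries, which makes their shares less certain. The sets overlap and were not tested against each other.

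**Figure D4:**
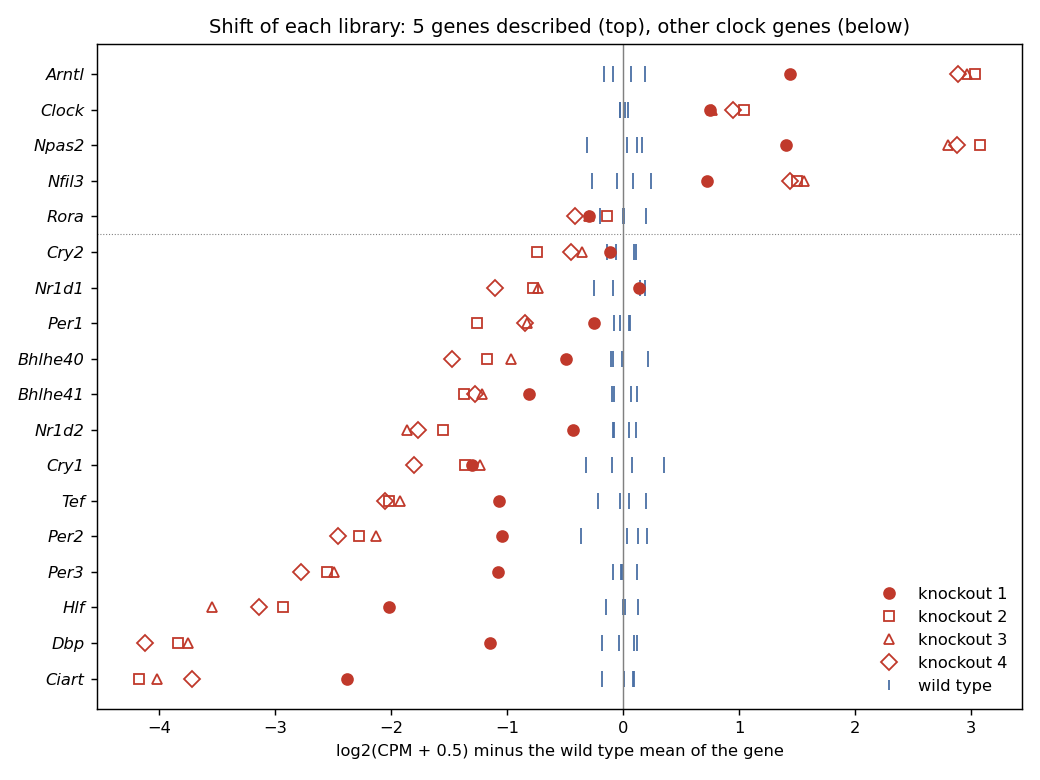
Log2(CPM + 0.5) of each library minus the gene's wild type mean, for the 5 genes above the dotted line and other clock genes below it, with red symbols for knockout libraries and blue ticks for wild type libraries. Knockout replicate 1 (filled circles) lies between wild type and the other knockouts for Arntl, Npas2, Nfil3, Dbp, Per2 and Per3, and among the other knockouts for Cry1.

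The spread between libraries was set beside counting error. In wild type lungs the coefficient of variation was 13.4% for Arntl, 18.3% for Npas2, 17.9% for Nfil3 and 2.47% for Clock, and counting error alone would give 15.7%, 18.9%, 15.5% and 4.20% at these depths of 21 to 605 reads per library. Wild type libraries thus differed in these 4 genes by about as much as, or less than, read counting would give. Rora was the exception, at 11.4% against 4.58%. In knockout lungs the coefficients were 40.3% for Arntl, 41.8% for Npas2 and 25.2% for Nfil3, where counting error would give 6.24%, 7.36% and 10.1%. For Clock and Rora they were 10.1% and 8.04%, where it would give 3.36% and 5.54%. Without knockout replicate 1, Arntl averaged 21.7 ± 1.14 CPM, Npas2 15.6 ± 1.64 CPM and Nfil3 7.72 ± 0.345 CPM over 3 knockout libraries. Their coefficients were then 5.24%, 10.5% and 4.47%, where counting error would give 5.72%, 6.73% and 9.58%, so Npas2 alone of these 3 still varied more than counting would give. These error figures cover counting only.

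Other parts of the pathway differed to unlike degrees. Median log2 fold changes were -0.05 for enzymes and cofactors and -0.81 for clock output genes, against -1.29 for the repressors. Of 27 tested enzymes and cofactors that modify clock proteins, 1 passed the test as higher and 7 as lower. Among all genes 16.6% were called higher and 14.3% lower. In all, 29.6% of the list were called, near the 30.9% of all genes, but mostly as lower, a lean that was not tested. Those with the smallest adjusted p were Usp2, a deubiquitinase whose gene is itself rhythmic, Sirt1, a deacetylase, and Nono, an RNA-binding partner of the PER proteins, with log2 fold changes of -1.98, -0.69 and -0.36 (limma adjusted p = 0.000482, 0.00138 and 0.00233). The gene called higher was Prkaa1, a subunit of the kinase that phosphorylates CRY proteins, which lost its call without knockout replicate 3 or wild type replicate 1 or 2. Of 9 tested genes that REV-ERB factors are known to repress in some tissue, 2 rose and 2 fell, where 16.6% of all genes rose and 14.3% fell, and the median log2 fold change was 0.10. Lpl, the lipase of capillaries, rose to 78.0 ± 5.92 CPM in knockout lungs, against 60.6 ± 4.59 CPM in wild type lungs (limma adjusted p = 0.00489), Cdkn1a, the cell cycle inhibitor p21, was the other higher gene, and Cry1 was among the lower ones. The call of Cdkn1a ended when knockout replicate 3, knockout replicate 4, wild type replicate 1 or wild type replicate 4 was left out. Of 7 tested clock output genes 5 fell, where 14.3% of all genes did. By adjusted p they were led by Tspan4, which is rhythmic in many mouse organs. Tspan4 stood at 42.3 ± 15.5 CPM in knockout lungs, against 128 ± 12.9 CPM in wild type lungs. Its log2 fold change was -1.65 (limma adjusted p = 0.000112), or -1.87 without knockout replicate 1. Next came Usp2, and then Wee1, a kinase gene with E-boxes (log2 fold change -1.08, limma adjusted p = 0.00207).

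Genes with like profiles were sought by the root mean square difference over the 8 libraries of log2(CPM + 0.5) minus the gene's wild type mean. The search left out numbered gene models (current symbols such as Gm or Rik) and covered 10561 other genes tested with a mean of at least 5 CPM. Arntl and Npas2 differed from each other by 0.18, less than either did from any of these genes. The measure takes in the size of the knockout shift, on which the 5 genes were selected. Few genes shifted that far, and only 2 of those searched lay within 0.5 of Arntl and 2 within 0.5 of Npas2. Their nearness to each other, and that of their mirror images, is therefore description only. Next to both came Spon2, a secreted matrix protein, at 0.27 from Arntl and 0.37 from Npas2, with 21.7, 60.8, 67.5 and 45.0 CPM in knockout lungs, against 7.06, 5.65, 7.85 and 4.94 CPM in wild type lungs. Abca17, an ABC transporter, and Acacb, an acetyl-CoA carboxylase, followed at 0.48 and 0.62 from Arntl. The nearest mirror images of Arntl were Per3 at 0.30, Hlf at 0.34 and the membrane protein gene Tmem212 at 0.47, and those of Npas2 were Per3 at 0.26, Hlf at 0.39 and Per2 at 0.45. Without knockout replicate 1, none of the 3 mirror genes of Arntl and 1 of those of Npas2 stayed among the 3 nearest, and the same held for 1 of the 3 like genes of Nfil3.

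Nfil3 had Ccdc184 (listed as AI836003), Spaar (listed as 5430416O09Rik) and the zinc finger gene Zfp960 as nearest genes, at 0.15, 0.16 and 0.19. Its mirror images were Snx25, a sorting nexin, the clock repressor Bhlhe41 and Chsy1, a chondroitin synthase, at 0.17, 0.19 and 0.20. Clock lay near Aplnr, the apelin receptor, Abca3, the lipid transporter of lamellar bodies, and Gng11, a G protein subunit, each at 0.07, and its mirror images were Usp40, Acsl1 and Smim5 at 0.07, 0.08 and 0.10. Aplnr stood at 85.3, 111, 89.9 and 97.7 CPM in knockout lungs, against 59.0, 47.9, 50.7 and 50.0 CPM in wild type lungs. Clock itself was 0.39 from Nfil3 and 1.28 from Arntl. Since 329 genes lay within 0.3 of Clock and 2488 within 0.5, its distance from Nfil3 marks no shared pattern. Rora lay within 0.1 of 167 genes, so Rrp8 and Ssr1, which are among its nearest, and its mirror images Mir682, Hint1 and Cstb are named for completeness and mark no pattern of their own.

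Genes that hold the ROR element letters near their starts were called about as often as all genes. Of 46 tested genes with AGTAGGTNA in a promoter window, Arntl and Nfil3 left out, 15.2% were called higher and 13.04% lower, with a median log2 fold change of -0.04, against 16.6% and 14.3% of all genes. Of 1197 tested genes with the E-box CACGTG, 14.5% were called higher and 14.8% lower. Of 264 tested genes with the D-box letters TTATGNAA, 14.8% were called higher and 20.1% lower, with a median log2 fold change of -0.05, so lower calls were more frequent there than among all genes. That difference was not tested.

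Nfil3 and Rora are also known for their roles in natural killer and innate lymphoid cells, so markers of T, natural killer and innate lymphoid cells were read beside them. All 12 were listed, none was at 0 in any library, and their sum ran from 78.0 to 104.2 CPM in knockout lungs, against 103.1 to 114 CPM in wild type lungs. Of 10 tested, 0 passed as higher and 2 as lower, Cd3g and Nkg7, where 16.6% of all genes were called higher and 14.3% lower. Il1rl1, a receptor of type 2 innate lymphoid cells, stood at 0.08 to 0.47 CPM in knockout lungs, against 0.12 to 0.38 CPM in wild type lungs. Their part in the values of Nfil3 and Rora was not tested.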

How the data were processed

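The 8 CAGE libraries were made from total RNA of lung and read from 1 end to 75 nt in a shared run, per the labels' protocols. HISAT2 2.0.5, BWA 0.7.12-r1039, edgeR and the mm9 build are listed, with no role or order, per the submitters' processing notes. The annotation, and whether strand was counted, were not given in the sources used here. The values deposited by the authors are CPM with 2 decimals, and each column adds up to 1000000 within rounding. The size of 1 read was found from the CPM steps, which turned 100% of values into whole reads (tolerance 0.1 reads). A gene at 3 reads stood at 0.161 to 0.231 CPM, which covers counting error only. Between libraries of the same genotype the chi-square per gene was 11.3 to 19.1, so none were merged. Since the labels do not tie each library to an animal, p-values measure the spread between these libraries, which may be technical.

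Genes that reached 1 CPM in 4 or more of the 8 libraries were fitted with limma 3.58.1 (R 4.3.3) on log2(CPM + 0.5) with a variance trend and genotype as the only term, two-sided, with Benjamini-Hochberg adjustment over all genes tested. Fold changes on that scale understate changes of low genes. edgeR 4.0.16 and DESeq2 1.42.0 were run on the recovered reads as alternatives, beside other pseudocounts, filters and scalings, a replicate block and leaving out each library; limma was also tested on simulated data. The 5 genes and all lists were chosen with earlier results of these data known. Named genes are the 5, the Nos genes, the clock repressors, D-box activators and Arntl2, up to 3 called genes with the smallest adjusted p of each other list, and the 3 nearest and 3 mirror profiles. Prkaa1, Cdkn1a, Cd3g, Nkg7, Il1rl1, Sftpc, Sftpb, Scgb1a1, Foxj1, Pecam1, Cldn5 and Cdh5 were named after their values were seen. Nos1 and Nos2 were not analysed here, and some genes that the rule takes are not reported here. In GENCODE M21, whose coordinates are not printed, no other listed gene overlaps the 5 genes, and blastn 2.17.0 found no near-identical copy (97% identity or more, 75 nt or longer) of the first 200 nt of their transcripts.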

Additional observations from a re-analysis of the deposited data

Results flagged for a closer look

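Among 96 groups of 4 libraries checked, 10 had a library whose gap to its nearest neighbour, as a share of the group's range, exceeded Dixon's 95% critical value. Chance exceeds that value in about 1 of 20 groups that are independent. The genes checked were picked with values known or by like profiles, so their groups are not independent. The count is therefore not read against that share. In 9 of the 10 groups the library was knockout replicate 1. It was the lowest knockout library for Arntl (gap of 0.854 of the range) and Spaar (0.914). It was the highest for Per2 (0.845), Per3 (0.905), Ciart (0.849), Nr1d2 (0.859), Dbp (0.957), Tef (0.905) and Tspan4 (0.851). In the remaining group wild type replicate 1 was the lowest for Wee1 (0.855). Npas2 and Nfil3 had the same library lowest without passing the limit. The time of collection is not given in the labels, and its part was not tested.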

How the results depend on the processing

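The log2 fold changes of the 5 genes kept their sign and moved by less than 1 SD between replicates in all alternatives run, with Nfil3 missing from the filter of 5 CPM because it is too low. Over scalings, pseudocounts, filters, the replicate block, edgeR and DESeq2 they ran from 2.39 to 2.92 for Arntl, 2.30 to 2.96 for Npas2, 0.86 to 0.88 for Clock, 1.17 to 1.47 for Nfil3 and -0.32 to -0.28 for Rora. Leaving out 1 library gave 2.43 to 2.96, 2.36 to 2.92, 0.82 to 0.92, 1.21 to 1.5 and -0.35 to -0.22. In the same runs the number of enzymes and cofactors called higher was 0 to 1, and of genes repressed by REV-ERB factors 1 to 2. Mir682 reversed to a log2 fold change of -0.00265 with quantile normalization; the cause was not tested. Same-numbered libraries of the genotypes correlated at -0.00287 to 0.0646 in their deviations from the group means. Replicate 4 matched its own number best in both directions, and knockout replicate 1 also matched wild type replicate 1 best. Low correlations cannot exclude a pairing, and none was used in the main fit. With a replicate block in the fit, 2384 genes were called higher and 2014 lower, against 2341 and 2010 without it (2247 and 2326 with edgeR, 2189 and 2266 with DESeq2, 2249 and 2358 with median-ratio scaling), and the log2 fold changes of the 5 genes stayed at 2.58, 0.88, 2.54, 1.30 and -0.29. Depth limits Npas2 most, with 21 to 35 reads per wild type library.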
